A study of Mus musculus with 2 samples.

Results

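The genes described here are the ligands, receptors, inhibitors and intracellular regulators of the Wnt pathway. They were chosen by symbol: every measured gene of the Wnt, Fzd, Sfrp, Dkk and Rspo families, and 17 single genes such as Axin2, Lrp6, Ctnnb1 and Lgr4. Of the 17305 genes with a probe set annotated to exactly 1 symbol, 57 were members. Of the 17 single genes, 16 were measured, and Tcf7 was not analysed here. For a gene with more than 1 probe set, the brightest, by its average over the arrays, was used. A pair of entries follows from the spelling of the symbol alone: Fzd10os, a transcript from the strand opposite Fzd10, and Dkkl1, a Dkk-like gene.

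The data come from 2 single-channel arrays, 1 of grafted small intestinal epithelium and 1 of control colonic epithelium, both from mice of the C57BL6 background. The donor cells carried an EGFP transgene, whose promoter is not stated in the labels, and were kept as organoids, which are epithelial cultures that contain stem cells, for 7 days. They were then introduced into the colons of C57BL6 recipients, and the graft was taken 4 weeks later. The colon sample came from a C57BL6 mouse without a graft. Both epithelia were cut out by laser microdissection, the tissue of serial sections was combined for each specimen, and the single specimen of each kind with the best RNA integrity was used. With 1 array per group no difference has a replicate check and no p-value is given. No ungrafted small intestine was analysed here, so origin and grafting cannot be told apart.

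Wnt proteins are secreted lipid-modified ligands that bind Frizzled receptors together with the co-receptors Lrp5 or Lrp6. Without ligand, a complex around Axin and Apc marks beta-catenin for destruction. With ligand, beta-catenin accumulates and acts with Tcf and Lef factors in the nucleus. R-spondins strengthen the signal by binding receptors of the Lgr family and removing the ubiquitin ligases Rnf43 and Znrf3, which otherwise clear Frizzled from the membrane. In the intestine this pathway maintains the stem cells at the crypt base. Its ligands come from Paneth cells in the small intestine and from the mesenchyme beneath the crypts.

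Levels are log2 values as deposited, and every difference is graft minus colon. A gene was taken to reach the median level if the higher of its 2 values was at least 5.48, the median of all gene values. This was so for 18 of the 57 members (31.6%), against 9392 of all 17305 genes (54.3%). For the other 39 members a level cannot be separated from background, and any difference there is understated by an unknown amount. Technical error can be judged from genes that have 2 probe sets at the median level, of which there were 586. The differences of the paired probe sets departed from each other with an SD of 0.48, which corresponds to 0.34 for a single probe set. Both probe sets read the same RNA, so this leaves out error in its amplification and labelling as well as variation between mice. Of the 57 members, 56 had a single probe set, so this check could be made within the members only for Wnt4.

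Members differed in both directions. The median difference over all 57 members was 0.029, beside 0 over all genes, but 39 of the 57 lay too low to be judged. Individual differences ran from -1.12 to 0.63. Over the 18 members that reached the median level the median was -0.14, against -0.047 for all 9392 such genes. At a 2-fold threshold 1 of the 18 members was lower in the graft, where 5.68% of all genes at this level were, and 0 were higher, where 3.55% of all genes were. At 1.5-fold, 3 were lower and 2 were higher, beside 14.6% and 8.42% of all genes. These shares are near the background, so the counts set the members apart in neither direction. The 5 genes past 1.5-fold were Lgr4, Lrp6 and Fzd1, all lower in the graft, and Lrp5 and Ctnnb1, both higher. They are receptors or co-receptors at the cell surface, with the exception of Ctnnb1, and the graft value of Fzd1 lay below the median level. Such surface genes were a large part of the 18, with 4 Frizzled receptors and 3 co-receptors or R-spondin receptors. The other receptors that reached the median level, Fzd5, Fzd6 and Fzd7, had differences of -0.21, -0.19 and 0.062. In whole epithelium, fewer cells of a type and less RNA per cell cannot be told apart.

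**Figure D1:**
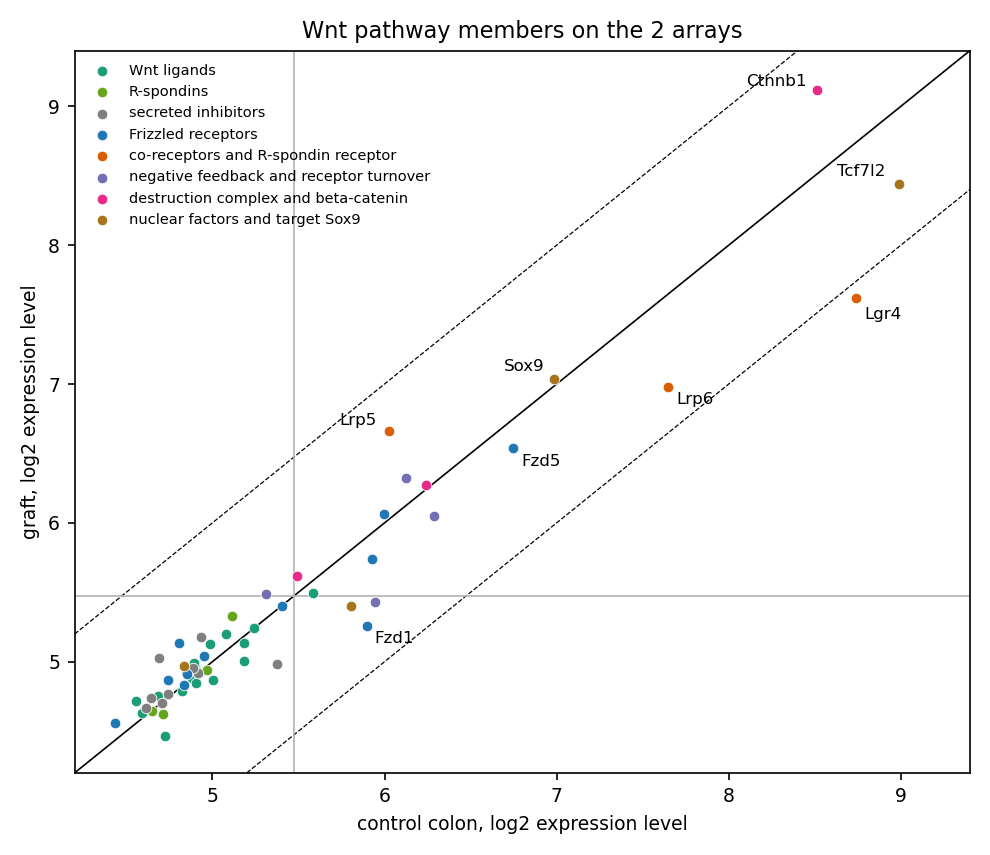
Each of the 57 members is plotted by its log2 level on the colon array (x axis) and on the graft array (y axis), coloured by role. The solid line marks equal levels, the dashed lines 2-fold differences and the grey lines the median of all gene values, 5.48. Lgr4 is the single point past a dashed line, and 39 members lie in the lower left corner below the median.

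Wnt ligands lay near the lower end of the range on both arrays. Of the 18 Wnt genes measured, 1, Wnt4, reached the median level, and its values were 5.50 in the graft against 5.58 in the colon. A second probe set for Wnt4 read 4.88 and 4.92, so both probe sets put the difference within 0.1 of equality, at -0.086 and -0.035. The other 17 Wnt genes had levels from 4.46 to 5.24 over both arrays, and their differences ran from -0.26 to 0.16. Among these 17, 8 were higher in the graft, 6 were lower and 3 had exactly the same value on both arrays. Wnt8b had the greatest difference of them, at 4.46 in the graft against 4.72 in the colon.

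Wnt3, the ligand that Paneth cells of the small intestine make, stood at 4.72 in the graft against 4.56 in the colon, a difference of 0.16. Paneth cell markers differed far more on the same arrays: 5 of 6 measured were past 2-fold and higher on the graft array, with a median difference of 4.59. Their levels spanned 6.11 to 11.63 in the graft and 4.22 to 5.44 in the colon, all below the median level there, so the differences may be understated. Those of Ang4, Defa24, Itln1 and Lyz1 were 6.80, 6.68, 4.88 and 4.31. Wnt3 was thus below the median level on both arrays, beside Paneth markers that were high on one. The ligands of the gut mesenchyme, Wnt2b and Wnt5a, had differences of -0.18 and -0.14, both also below the median level. Wnt2b read 5.01 in the graft against 5.19 in the colon, and Wnt5a 4.87 and 5.00.

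All 4 R-spondins were below the median level on both arrays. Rspo1 stood at 5.33 in the graft against 5.11 in the colon, the greatest difference of the family at 0.21. Rspo3, which mesenchymal cells under the crypts secrete, read 4.94 and 4.97, and Rspo2 read 4.64 and 4.65. Rspo4 stood at 4.62 and 4.72. None of these agonists could be separated from background in either tissue.

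The 10 secreted inhibitors were below the median level too. They include the Sfrp proteins, which bind Wnt ligands, and the Dkk genes, of which Dkk1 blocks Lrp5 and Lrp6. Dkk3 and Dkkl1 were placed here by symbol alone. Also included are the Wnt-binding protein Wif1, and Notum, an enzyme that strips the lipid from Wnt. The median difference of the 10 genes was 0.061, with 7 higher in the graft, 1 lower and 2 exactly equal. The single lower gene, Dkk3, stood at 4.99 in the graft against 5.37 in the colon. Dkk4, at 5.03 and 4.69, and Sfrp1, at 5.18 and 4.94, had the greatest positive differences, 0.34 and 0.24. Notum read 4.67 and 4.61, and Wif1 read 4.96 and 4.89. Across the 39 members below the median level as a whole, 22 were higher in the graft, 10 were lower and 7 were equal, while among all 7913 genes below it 3620 were higher, 2522 lower and 1771 equal.

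Frizzled receptors were measured with 11 probe sets, of which 4 reached the median level. Fzd1 stood at 5.26 in the graft against 5.90 in the colon, 1.56-fold lower, with the graft value under the median level, so that the fold is uncertain. Fzd5, a Frizzled of crypt and Paneth cells, read 6.54 and 6.75, a difference of -0.21. Fzd6 read 5.74 and 5.93. Fzd7, a Frizzled receptor of intestinal stem cells, was nearly equal at 6.06 and 6.00. Except for Fzd1, these differences were within the SD of 0.34 for a single probe set. The remaining 7, Fzd10os included, spanned 4.43 to 5.40, with 5 higher in the graft, 0 lower and 2 equal, and the greatest difference was that of Fzd4, at 5.13 and 4.80.

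The co-receptors and the R-spondin receptor Lgr4 each differed by more than 1.5-fold, and they went both ways. Lgr4, which binds R-spondins and is present throughout the crypt, stood at 7.62 in the graft against 8.74 in the colon. It was 2.17-fold lower in the graft, a difference of -1.12, and -0.97, under 2-fold, after quantile normalization of the 2 arrays. Lrp6 stood at 6.98 and 7.65, 1.59-fold lower. Lrp5 went the other way, at 6.66 in the graft against 6.03 in the colon, 1.55-fold higher. The 2 co-receptors act side by side in the same receptor complex, and on these arrays their differences had opposite signs, 0.63 for Lrp5 and -0.67 for Lrp6.

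**Figure D2:**
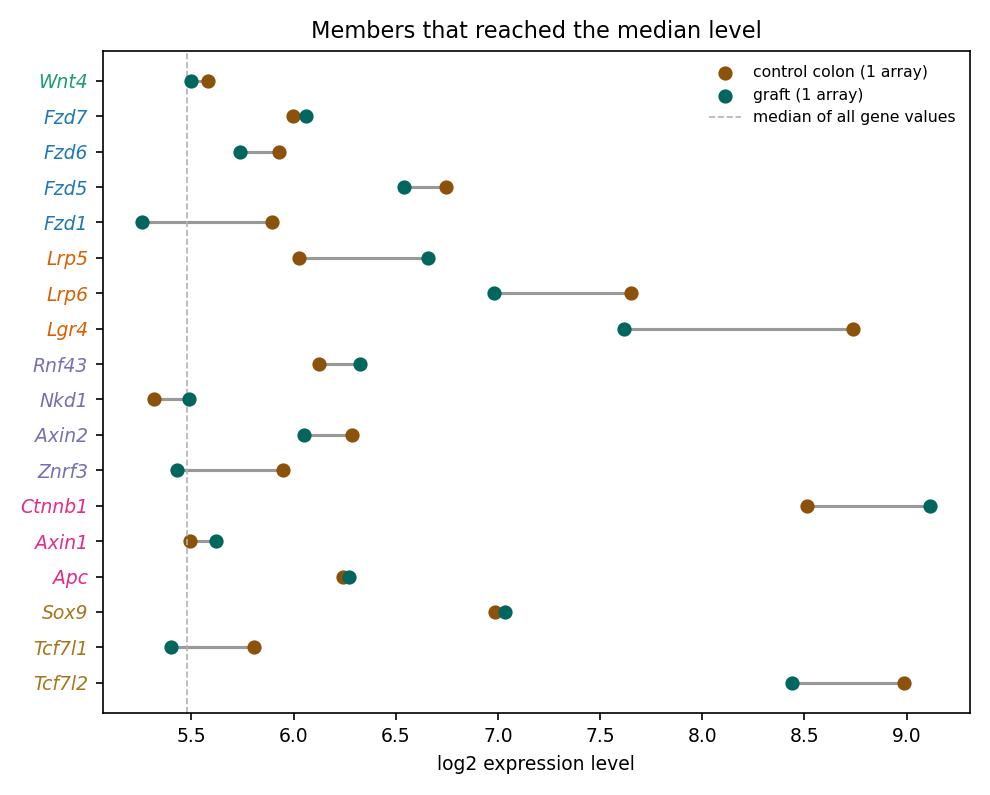
The 18 members that reached the median level are shown with their log2 level on the colon array (brown) and on the graft array (green), 1 array each, joined by a line and ordered and coloured by role. The dashed line marks the median of all gene values, 5.48. The longest line is that of Lgr4, from 8.74 in the colon to 7.62 in the graft, and Lrp5 and Lrp6 run in opposite directions.

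The next 4 genes are ones that Wnt signalling switches on to restrain itself. Axin2, the most used readout of beta-catenin activity, stood at 6.05 in the graft against 6.29 in the colon, a difference of -0.24. Of the 2 ubiquitin ligases, Rnf43 read 6.33 and 6.12 and Znrf3 read 5.43 and 5.95, differences of 0.20 and -0.52. Nkd1, an inhibitor that acts on Dishevelled, was close to the median level, at 5.49 in the graft against 5.31 in the colon. In this group of 4, 2 were higher and 2 were lower, 0 by 2-fold. Among them, Znrf3 alone exceeded the SD of 0.34 for a single probe set, and its graft value lay below the median level.

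Beta-catenin and 2 scaffolds of the complex that destroys it form the next group, and 0 of the 3 differed by 2-fold. Ctnnb1, which encodes beta-catenin, stood at 9.12 in the graft against 8.51 in the colon, 1.52-fold higher. Beta-catenin is mainly controlled by protein breakdown, and it is also part of cell junctions. The scaffolds Apc and Axin1 had differences of 0.031 and 0.12, within the SD for a single probe set. Apc read 6.27 and 6.24, and Axin1 read 5.62 and 5.49.

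Of the 4 genes in the group of nuclear factors and Sox9, 2 were higher in the graft and 2 lower, 0 by 2-fold. Tcf7l2, the main Tcf factor of the intestinal epithelium, stood at 8.44 in the graft against 8.99 in the colon, 1.46-fold lower. Tcf7l1, which mostly acts as a repressor, read 5.40 and 5.81, a difference of -0.41. Lef1 was below the median level on both arrays, at 4.97 and 4.84. Sox9, a target of the pathway in crypt stem and Paneth cells, was nearly equal at 7.04 and 6.99. Its difference was 0.050, beside the Paneth markers described above.

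Other genes of the pathway were taken from 4 lists made by function, when differences of some of their genes, such as Lgr5, Cd44 and Mmp7, were already known. The list for Wnt secretion and extracellular cofactors had 20 measured genes, of which 7 reached the median level. Of these 7, 0 were 2-fold higher and 2 were 2-fold lower in the graft, beside 3.55% and 5.68% of all genes at this level. Lgr5 is 1 of the 2, and its difference was already known, so the count is no independent result. The median difference over the 20 was 0, but 13 of them lay below the median level. Wls, the carrier that brings Wnt ligands to the cell surface, had the greatest difference of this list, at 5.87 in the graft against 7.74 in the colon, 3.66-fold lower. Lgr5, the R-spondin receptor of cycling crypt stem cells, stood at 5.10 and 6.47, a difference of -1.38 whose graft value lay below the median level and which may be understated. Lgr4 and Lgr5 were therefore both lower in the graft, whereas Lgr6 was below the median level on both arrays at 5.16 and 5.08. The glypican Gpc4 had a difference of -0.66. Of the 20, 9 were higher in the graft, led by Apcdd1, Gpc3 and Lrp4 with differences of 0.40, 0.30 and 0.12, the first pair below the median level on both arrays.

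The upstream sequences of Lgr4 and Wls, the genes with the greatest difference among the members and in the cofactor list, are shown because both were lower in the graft. Each is the 250 bases before the gene's start in RefSeq, build GRCm38.p6, 5′ to 3′ on the plus strand, on which both genes lie. Capitals mark CTTTG or its reverse complement CAAAG, the core letters of sites that Tcf and Lef factors can bind. Lgr4 lies at chr2:109917397-109917646 and Wls at chr3:159839400-159839649.
Lgr4: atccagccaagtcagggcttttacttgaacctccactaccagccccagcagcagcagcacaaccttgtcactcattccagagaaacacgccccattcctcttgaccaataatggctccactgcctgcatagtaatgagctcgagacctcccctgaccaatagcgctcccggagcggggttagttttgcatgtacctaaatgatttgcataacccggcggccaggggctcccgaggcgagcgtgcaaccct
Wls: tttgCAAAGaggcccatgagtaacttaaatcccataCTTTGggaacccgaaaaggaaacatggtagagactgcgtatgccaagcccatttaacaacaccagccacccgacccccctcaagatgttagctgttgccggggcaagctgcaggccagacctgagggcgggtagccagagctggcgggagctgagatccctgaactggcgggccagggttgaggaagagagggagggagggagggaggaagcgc
The Lgr4 window held 0 copies of the core and the Wls window 2. Of all 32851 RefSeq windows of 250 bases, 48.6% held at least 1 copy, so its presence is common.

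The longer motif CTTTGAT, searched on both strands as CTTTGAT or ATCAAAG in windows from 250 bases before to 50 after the start, was in 3.73% of all 32851 windows. A promoter was found in RefSeq for 36 of the 57 members (63.2%), below the 80% needed, so a comparison of the members' share with that of all genes is void. The members with a match were Wnt5b and Wnt11, and of the 4 genes with one in the list of intestinal Wnt targets described below, Sp5 and Mmp7 are shown beside them, chosen after their values were seen. Each line gives the motif in capitals with 9 bases on either side, 5′ to 3′ along the gene. All are from build GRCm38.p6, and a match is a run of letters that says nothing about binding.
Wnt5b: taagtctctCTTTGATctgctccct
Wnt11: cgtgggcggATCAAAGcgacggtcc
Sp5: caaggccccCTTTGATcaggaaaat
Mmp7: tcaggaaacATCAAAGtagctctga
The Wnt5b match lies at chr6:119449442-119449466 on the minus strand, its motif beginning 71 bases before 1 of the gene's RefSeq starts. For Wnt11 it lies at chr7:98835052-98835076, 51 bases before a start, and for Sp5 at chr2:70474810-70474834, 104 bases before. For Mmp7 it lies at chr9:7692085-7692109, beginning at base 5 from 1 RefSeq start and 247 bases before another. Wnt5b and Wnt11 had differences of -0.049 and -0.061, both below the median level. Sp5, a transcription factor induced by Wnt, stood at 5.51 in the graft against 4.93 in the colon, and Mmp7, a protease of Paneth cells, at 9.02 and 4.80. The other target genes with the letters, Tnfrsf19 and Tgif1, had differences of 0.069 and 0.056, so genes that share the motif near their start differed by very unlike amounts.

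Intestinal Wnt target genes had a median difference of 0.24 over 17 measured, of which 16 reached the median level. Of these 16, 2 were at least 2-fold higher and 1 was at least 2-fold lower, beside 3.55% and 5.68% of all genes at this level. The genes counted are Mmp7, Cd44 and Lgr5, whose differences were known when the list was made, so the counts are no independent result. Mmp7 was 18.6-fold higher in the graft, a value that is uncertain because its colon level lay near background, and it is also on the Paneth marker list. Without it the median was 0.20. The adhesion receptor Cd44 stood at 7.74 in the graft against 5.94 in the colon, 3.49-fold higher, and the lower gene was Lgr5. Sox4, a transcription factor of crypt progenitors, had a difference of 0.86, and the stem cell factor Ascl2 one of -0.12. Rgmb, a co-receptor of BMP signalling, had a difference of -0.049. Of the 17, 13 were higher in the graft and 4 lower. Of all 9392 genes at the median level, 3908 were higher, 5075 lower and 409 equal, a set without dim genes such as Tnfrsf19, which is among the 17. Some of the 13 were nearly equal on the 2 arrays, such as Ephb3 and Tgif1 with differences of 0.061 and 0.056. The cell cycle targets Myc and Ccnd1 differed by 0.59 and 0.61. Sp5, whose colon value of 4.93 lay below the median level, differed by 0.58. The stem cell genes Smoc2 and Tnfrsf19 had differences of 0.16 and 0.069, the latter below the median level. Of the stem cell genes in this list, Lgr5 was past 2-fold and Ascl2, Smoc2, Tnfrsf19 and Prom1 were not. Prom1, the brightest of them, read 8.03 and 7.65, graft first, and was higher in the graft by 0.39. Ascl2 read 5.50 and 5.62 and Smoc2 5.81 and 5.65, little above the median level, and Tnfrsf19 read 4.99 and 4.92. Background can hide a fall in dim genes such as Ascl2, Smoc2 and Tnfrsf19. Prom1, by contrast, lay well above the median level on both arrays and was not lower. Whether Lgr5 differs from the other stem cell genes was not tested.

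Inside the cell, 0 of 26 transduction genes differed by 2-fold, and 22 of them reached the median level. Their median difference was 0.010. The beta-catenin cofactor Bcl9 was higher in the graft, at 7.13 against 6.34, as were Dvl1, a Dishevelled protein that relays the receptor signal, at 5.93 against 5.29, and Ctnnbip1, which keeps beta-catenin from Tcf factors, at 5.89 against 5.32. The co-repressor Tle4 was lower, at 6.53 against 7.27. Btrc and Amer1, which take part in the breakdown of beta-catenin, had differences of -0.49 and -0.37. The kinase genes Gsk3b and Csnk1a1, which phosphorylate beta-catenin, differed by 0.12 and -0.18.

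**Figure D3:**
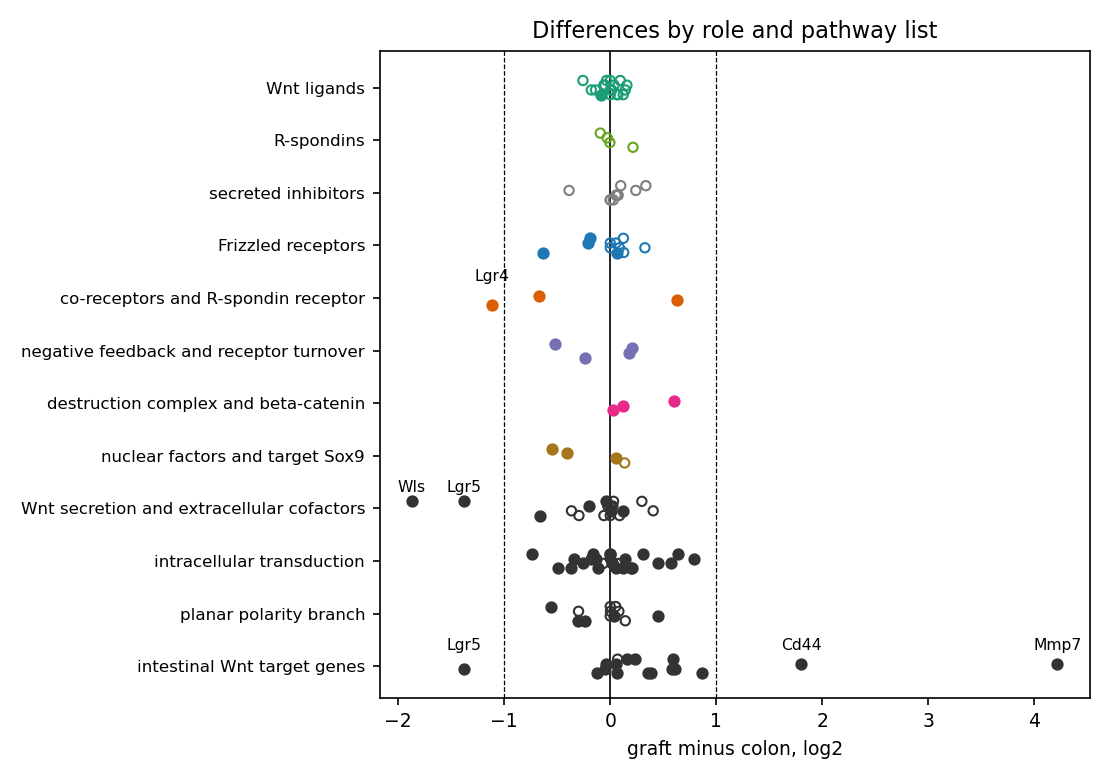
Differences in log2 level, graft minus colon, are plotted for each member by role (coloured rows) and for 4 lists of other pathway genes (dark rows). Filled points reached the median level of 5.48 on at least 1 array, open points did not, and dashed lines mark 2-fold. Past 2-fold are Lgr4 among the members, and Wls, Lgr5, Cd44 and Mmp7 in the other lists, with Lgr5 plotted in both lists that hold it.

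Markers of the tissues and of cells that dissected epithelium could hold were set beside these values. All 12 general epithelial markers reached the median level and 0 differed by 2-fold, with a median difference of 0.30. Krt18, Cdx2 and Vil1 had differences of 0.91, 0.82 and 0.68, and Cldn3, Lgals4 and Epcam of -0.71, -0.49 and -0.37. Of 8 enterocyte markers of the small intestine all 8 were past 2-fold and higher in the graft, among them Fabp1, Apoa4, Alpi and Apoa1 with differences of 5.67, 5.61, 5.60 and 5.55. Of 8 markers of colonic absorptive cells all 8 were past 2-fold and lower, among them Car1, Cyp2c55, Slc6a14 and Slc26a3 with -7.23, -5.64, -4.51 and -4.14. Most of these markers lay below or near the median level in the other tissue, so these differences may be understated and have no order. In these markers each array showed the pattern of its labelled tissue. The marker lists were chosen with earlier results of these data known, so this pattern is no independent check of the labels.

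Markers of mesenchymal cells reached the median level on both arrays for genes such as Dcn. Of 17 fibroblast and smooth muscle markers, 14 reached the median level, 0 were 2-fold higher and 2 were 2-fold lower in the graft, with a median difference of -0.10. Summed log2 levels of the list were 101.2 in the graft against 105.8 in the colon. Dcn, a matrix protein of fibroblasts, read 7.37 in the graft against 7.99 in the colon, and Col3a1 read 6.46 and 6.56. The 2 lower genes, Lum and Foxf1, had differences of -1.76 and -1.11, with the graft value of Lum below the median level. Acta2 had a difference of -0.60, while Sparc and Col6a1 were higher in the graft by 0.49 and 0.40. Of the 17, 12 were lower in the graft, against 5075 of all 9392 genes at the median level. The 17 include 3 genes that did not reach this level. Wls and Fzd1, which mesenchymal cells also express, were lower too, and the part of these cells in that was not tested. Of 8 leukocyte markers 4 reached the median level and 0 differed by 2-fold. Ptprc and C1qb were 1.72-fold and 1.66-fold higher in the graft and Cd68 1.46-fold, with colon values below the median level. Adgre1 and Cd3g, below it on both arrays, had differences of -0.23 and -0.20. Lyz2, a lysozyme of myeloid cells, had a difference of -0.12. Of 7 endothelial markers 6 were below the median level, among them Pecam1, Cdh5, Kdr and Tek with differences of -0.29, -0.092, -0.067 and -0.020, and Egfl7 was higher by 1.23. All 4 neuron and glia markers were below it, with differences of 0.42 for Sox10, 0.15 for S100b, -0.082 for Uchl1 and -0.060 for Tubb3.

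**Figure D4:**
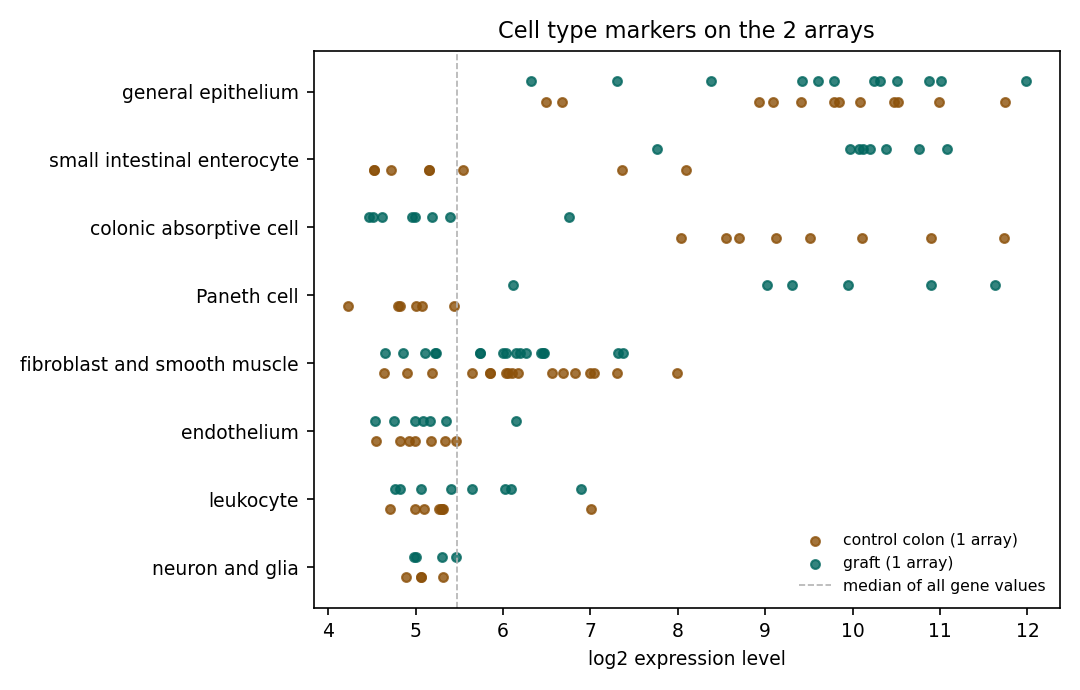
Log2 levels of the marker genes of 8 cell types are shown, 1 point per gene, for the colon array (brown) and the graft array (green). The dashed line marks the median of all gene values, 5.48. Enterocyte and Paneth markers are high on the graft array, colonic absorptive markers are high on the colon array, and the general epithelial and mesenchymal markers overlap.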

How the data were processed

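The values analysed are log2 expression levels deposited by the authors, for 24074 probe sets on each of 2 arrays. That they are log2 follows from their range, with 4.19 and 13.37 as the graft extremes and 4.22 and 13.46 as the colon extremes. The software, background correction and normalization are not stated in the labels used, and whether arrays were centred is unknown. The labels' protocols describe amplification of 4.33 ng of RNA and biotin labelling, which can distort single transcripts. The number of arrays limits the precision.

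Probe sets were named through the platform annotation: 18904 had 1 symbol, and 1330 with several and 3840 with none were left out. All 57 members were found by Entrez identifier in the RefSeq table of GRCm38.p6 with the same symbol. No further normalization was applied. Counts used thresholds of 2-fold and 1.5-fold over genes whose higher value reached the median. No test was made. Every member is covered. Of each other list, the 4 with the largest absolute differences and at most 2 of opposite sign were named, and genes named beyond these were chosen after their values were seen. Members and lists were chosen with earlier results of these data known. Computation used Python 3.11.15 with pandas 2.3.3 and numpy 2.4.6, and the counting steps were tested on simulated data. Alternatives were the mean of probe sets, quantile normalization, other filters on low values, other thresholds and another motif.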

Additional observations from a re-analysis of the deposited data

How the results depend on the processing

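The count of members at least 2-fold lower in the graft went from 1 to 0 with quantile normalization, where Lgr4 had a difference of -0.97, and the count of those higher was 0 in both. With a 1.5-fold threshold 3 members were lower and 2 higher. The median difference of the members was 0.013 with quantile normalization and -0.21 over the 7 members at or above 6.5. The last value and the -0.14 over the 18 members at the median level have the opposite sign to 0.029, which is a small value. The 2 counts were 1 and 0 with probe sets averaged, without a filter and with the 6.5 filter. Across the 18 members at the median level, quantile normalization moved a difference by at most 0.15 and changed the sign of 0, and averaging probe sets moved one by at most 0.025. The median of the intestinal target genes was 0.36 with quantile normalization and 0.20 without the Paneth marker Mmp7, an alternative added after the data were seen, as was the median over the 18 members. With the motif CTTTGAA in place of CTTTGAT, 1 member promoter in place of 2 held a match. No paired analysis was possible because each group has 1 array. Signal over background is unknown, so differences of dim genes are limited.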

Other observations

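The planar polarity branch, in which Wnt and Frizzled proteins orient cells without beta-catenin, had a median difference of 0.0013 over 12 genes, and 0 differed by 2-fold. Of the 12, 5 reached the median level. Daam1, which links Dishevelled to the actin cytoskeleton, stood at 6.69 in the graft against 7.25 in the colon, and the kinase Mapk8 at 7.38 and 6.93. Rac1, a small GTPase, had a difference of -0.30, and the core polarity protein Vangl1 also one of -0.30 below the median level. Daam2 and Celsr3 had differences of 0.14 and 0.081.

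The same value to the last digit stood on both arrays for 7 of the 57 members (12.3%), Wnt9a, Wnt10b, Wnt16, Fzd9, Fzd10, Dkk1 and Dkkl1, and for 2180 of all 17305 genes (12.6%). Among the 9392 genes that reached the median level, 409 (4.35%) were equal. A difference of 0 for such a gene is a property of the deposited values and has no error attached.

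Some pairs of Wnt genes are next to each other among the protein-coding genes of the RefSeq table. Wnt6 and Wnt10a had differences of -0.035 and 0.12, Wnt3a and Wnt9a of 0.094 and 0, and Wnt9b and Wnt3 of 0.014 and 0.16. All 6 genes lay below the median level on both arrays.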
